A study of Mus musculus with 9 samples.

Results

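A set of 9 immature B-cell genes were described in splenic B cells of a mouse model of chronic lymphocytic leukemia (CLL). They were picked by name from the 54838 genes counted in every library, and the set was put together with values of these data in view: Sox4 was selected on its high level in 1 Eµ-TCL1 library at 6 months of age, so its values are given as a description without a test. The members were Rag1, Rag2 and Dntt (recombination of antigen receptor genes), Vpreb1, Vpreb3 and Igll1 (surrogate light chain genes and a relative), Cd93 (a surface marker of transitional B cells), and Sox4 and Myb (transcription factors). Of these 9 members, 6 passed the filter on low counts and 3 (Rag2, Vpreb1 and Igll1) did not. RNA was sequenced from 9 mice labelled C57BL/6N, with 1 library each. All carried Eµ-hTCL1, human TCL1 driven in B cells by the immunoglobulin heavy chain enhancer, and the Eµ-PRMT5/TCL1 mice (transgene label Eµ-hPRMT5/hTCL1) also carried human PRMT5, an arginine methyltransferase, under a heavy chain variable region promoter with the same enhancer. The Eµ-TCL1 genotype had 2 mice at 3 months and 2 at 6 months, and Eµ-PRMT5/TCL1 had 3 at the younger age and 2 at the older. No group without TCL1 was part of the series, and the human transgenes were not analysed here. B cells had been enriched from spleen with a pan B-cell isolation kit, which leaves some other cells behind.

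A B cell is made in the bone marrow in steps. In pro-B cells, RAG1 and RAG2 together cut the DNA beside the gene segments of the heavy chain, and terminal deoxynucleotidyl transferase, the product of Dntt, adds bases that no template specifies at the joints. In pre-B cells, a new heavy chain is tested with a surrogate light chain built from the VPREB1 and IGLL1 proteins, before the light chain genes are rearranged in turn. Cells that leave the marrow carry CD93 as transitional B cells in the spleen and lose it as they become follicular cells. MYB and SOX4 are transcription factors that early B-cell development depends on, and both are also used outside B cells.

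The libraries held 12233230 to 17330246 counts. Values for single genes are given as CPM, counts scaled to a common library size, where 3 counts, the floor used here, came to 0.174 to 0.235 CPM. All 10 markers of B cells in general were detected in every library and none of them was at 0, and their summed level was 2886 to 7727 CPM. The level of T-cell markers was 644 to 2184 CPM, that of myeloid markers 1197.1 to 14707 CPM and that of natural killer markers 155 to 574 CPM, so transcripts typical of other blood cells were present in all 9 libraries. In such bulk RNA, fewer cells of a type and less RNA per cell cannot be told apart. Every 6-month library was deeper than every 3-month library. The summed counts of 4 Y-linked genes were 7872 and 10434 in the Eµ-TCL1 libraries at 6 months and 7863 in Eµ-PRMT5/TCL1 replicate 1 at 3 months, against 1 to 3 in the other 6 libraries. The sex of the mice therefore cannot be told apart from age within Eµ-TCL1, or from genotype at 6 months. The same limit holds where the age changes of the genotypes are compared, because the Eµ-TCL1 change is part of that difference. In Eµ-PRMT5/TCL1 sex can be set aside by leaving out 1 library.

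Compared per kilobase of exon (FPKM), the members covered a wide span of levels. The median over the 9 libraries was 5.93 FPKM for Myb, 5.70 for Cd93 and 4.55 for Vpreb3, close to the middle of the tested genes, of which 58.4%, 57.4% and 51.5% had a lower median. Dntt had a median of 1.20 FPKM and Sox4 of 0.756 FPKM. Rag1 at 0.175 FPKM, Vpreb1 at 0.120 FPKM, Igll1 at 0.0331 FPKM and Rag2 at 0 made up the low end. The ranges over libraries of all neighbours in this order overlapped. The place of Sox4 depended on how its length is counted. Of its 4795 exonic bases, 54.56% are shared with Gm26735, a gene on the opposite strand, and fragments in shared bases are left uncounted when strand is not used. Per kilobase of unshared exon, its median was 1.66 FPKM, above that of Dntt.

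**Figure D1:**
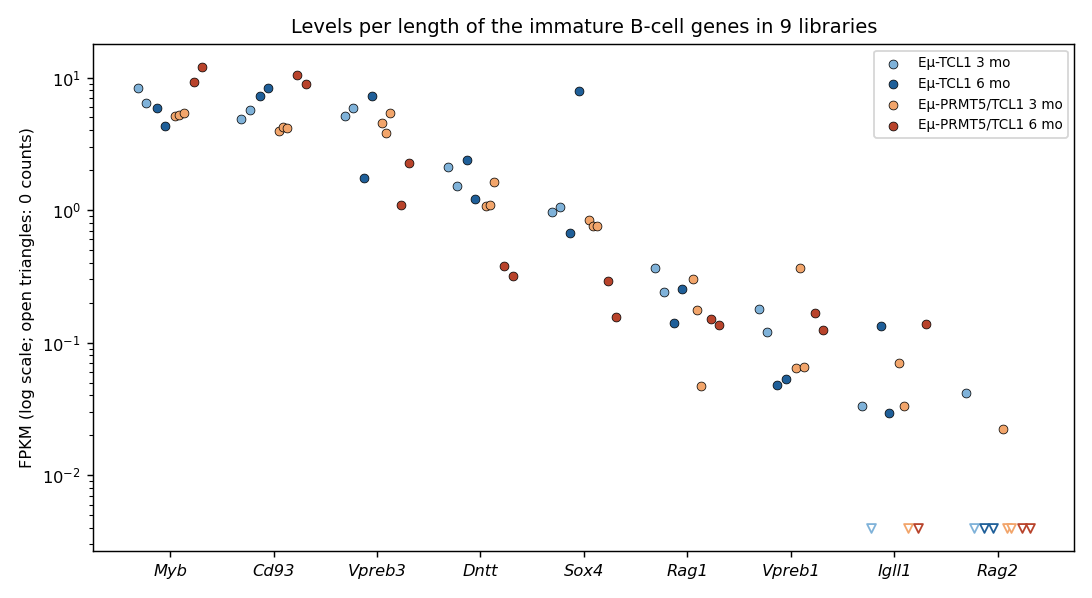
FPKM of the 9 immature B-cell genes (log scale), 1 point per library, coloured by group, with open triangles for libraries with 0 counts. Myb, Cd93 and Vpreb3 lie highest, Rag1 and the 3 genes that failed the filter lie lowest, and 1 Sox4 point at 7.95 FPKM stands apart from the rest of its column.

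The recombination genes were low in all groups. Rag1 (ENSMUSG00000061311, chr2:101638282-101649501, minus strand, build GRCm38) had 4 to 34 counts per library. Its level was 2.44 and 1.59 CPM in Eµ-TCL1 at 3 months, 0.927 and 1.67 CPM in Eµ-TCL1 at 6 months, 1.99, 1.16 and 0.314 CPM in the younger Eµ-PRMT5/TCL1 mice, and 1.00 and 0.898 CPM in Eµ-PRMT5/TCL1 at 6 months. By mean, both Eµ-TCL1 groups came before both Eµ-PRMT5/TCL1 groups, each genotype with the younger mice first, and the libraries of neighbouring groups overlapped throughout. Rag2 (ENSMUSG00000032864, chr2:101624718-101632529, plus strand), the obligate partner of RAG1, had 2 counts in Eµ-TCL1 replicate 1 at 3 months, 1 count in Eµ-PRMT5/TCL1 replicate 1 at 3 months and 0 in the other 7 libraries. All of its values were thus under the floor, and differences between groups were not detectable at this depth.

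Dntt (ENSMUSG00000025014, chr19:41029275-41059523, plus strand) was lowest in Eµ-PRMT5/TCL1 at 6 months. Its level was 4.51 and 3.25 CPM in Eµ-TCL1 at 3 months and 5.04 and 2.56 CPM in Eµ-TCL1 at 6 months. It was 2.30, 2.32 and 3.45 CPM in the younger Eµ-PRMT5/TCL1 mice, and 0.802 and 0.674 CPM in Eµ-PRMT5/TCL1 at 6 months. Both 6-month Eµ-PRMT5/TCL1 libraries, with 12 and 9 counts, lay below the other 7, which overlapped one another.

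The surrogate light chain genes were at or near the floor, apart from Vpreb3. Vpreb1 (ENSMUSG00000059305, chr16:16868403-16870843, minus strand) had 3 and 2 counts in Eµ-TCL1 at 3 months, 1 and 1 at 6 months, 1, 6 and 1 in the younger Eµ-PRMT5/TCL1 mice, and 3 and 2 in the older ones. Only Eµ-PRMT5/TCL1 replicate 2 at 3 months was above the floor. Igll1 (ENSMUSG00000075370, chr16:16860671-16863985, minus strand) had 1 and 0 counts in Eµ-TCL1 at 3 months, 5 and 1 at 6 months, 2, 1 and 0 in the younger Eµ-PRMT5/TCL1 mice, and 0 and 4 in the older ones. Counts above the floor thus appeared in 1 Eµ-TCL1 and 1 Eµ-PRMT5/TCL1 library at 6 months, with no order between the groups.

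Vpreb1 has a near-identical paralog, Vpreb2, which was listed at 0 in all 9 libraries. The coding sequences of both are 429 bases long, differ at 9 bases and are 97.9% identical, with an identical run of 196 bases, so that the counts of Vpreb1 and Vpreb2 may not be separable where a fragment covers no difference. The stretch with the densest differences is shown because only fragments over such bases can tell the genes apart. It spans coding bases 268 to 387 (chr16:16868638-16868757, minus strand, for Vpreb1 and chr16:17980919-17981038, plus strand, for Vpreb2, from the GENCODE transcripts of GRCm38), and the capitals mark the 6 bases at which they differ.
Vpreb1: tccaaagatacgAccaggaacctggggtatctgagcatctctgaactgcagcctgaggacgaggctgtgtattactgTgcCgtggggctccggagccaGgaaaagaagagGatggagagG
Vpreb2: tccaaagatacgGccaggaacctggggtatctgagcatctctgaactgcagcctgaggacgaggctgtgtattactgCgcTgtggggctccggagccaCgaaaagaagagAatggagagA

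Promoters of 3 of the 4 members lowest per length held letters of the kind bound by early B-cell factors. So did that of Myb, the highest per length. The promoter of Rag2, the lowest, held none. A window of 300 bases around the RefSeq start (build GRCm38.p6) was found for 8 of the 9 members; Cd93 had no entry. It was searched on both strands for CCCNNGGG (an EBF-type core), CAGGTG (an E2A-type E-box) and TGTTTAC (a FOXO-type site), which do not overlap in any window shown. Among all 32851 promoters in the table, 13.7%, 20.2% and 3.65% held these letters. The share that held any of the 3 was not counted. Igll1 (chr16:16863936-16864235, minus strand) held an EBF-type core and an E-box, Vpreb1 (chr16:16869206-16869505, minus strand) and Rag1 (chr2:101649483-101649782, minus strand) held 1 E-box each, Myb held 1 FOXO-type site, and the other 4 windows held none of the 3. The Igll1, Vpreb1 and Rag1 windows are shown, with the matches in capitals, because they were the low members that held a match. Igll1 and Vpreb1 were at or near the floor. Rag1, above the floor in all 9 libraries, had the lowest median FPKM of the tested members. The Rag2 window, without a match, is not shown. A match of letters does not make a binding site.
Igll1: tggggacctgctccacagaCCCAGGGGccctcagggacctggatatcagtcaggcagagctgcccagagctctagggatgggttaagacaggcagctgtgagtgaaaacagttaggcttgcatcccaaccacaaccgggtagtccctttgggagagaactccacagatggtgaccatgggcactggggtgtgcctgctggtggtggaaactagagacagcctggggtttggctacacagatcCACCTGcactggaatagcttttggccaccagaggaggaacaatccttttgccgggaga
Vpreb1: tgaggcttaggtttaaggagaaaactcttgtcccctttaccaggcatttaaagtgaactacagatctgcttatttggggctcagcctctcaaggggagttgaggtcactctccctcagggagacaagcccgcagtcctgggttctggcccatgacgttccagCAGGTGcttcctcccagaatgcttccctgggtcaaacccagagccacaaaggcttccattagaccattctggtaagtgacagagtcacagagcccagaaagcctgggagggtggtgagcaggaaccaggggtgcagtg
Rag1: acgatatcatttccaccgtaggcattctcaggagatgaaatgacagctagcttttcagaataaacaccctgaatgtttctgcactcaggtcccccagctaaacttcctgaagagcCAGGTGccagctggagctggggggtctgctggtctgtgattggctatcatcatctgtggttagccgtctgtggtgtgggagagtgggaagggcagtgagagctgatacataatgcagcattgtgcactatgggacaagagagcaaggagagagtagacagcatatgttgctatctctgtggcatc

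Vpreb3 (ENSMUSG00000000903, chr10:75943057-75949657, plus strand), whose product binds immunoglobulin chains inside the cell and which is also expressed beyond the pre-B stage, was above the floor in all 9 libraries, with 14 to 98 counts. Its level was 4.37 and 5.05 CPM in Eµ-TCL1 at 3 months, 1.51 and 6.28 CPM in Eµ-TCL1 at 6 months, 3.90, 3.26 and 4.63 CPM in the younger Eµ-PRMT5/TCL1 mice, and 0.936 and 1.95 CPM in Eµ-PRMT5/TCL1 at 6 months. The low libraries were both of Eµ-PRMT5/TCL1 at 6 months and Eµ-TCL1 replicate 1 at 6 months, so the 6-month groups overlapped. The nearest tested genes on either side fell in 6 against 3 months of Eµ-PRMT5/TCL1: Chchd10, 5310 bases away, changed by -1.38 on the log2 scale (edgeR adjusted p = 0.0164) and Gm5134, 4857 bases away on the other side, by -1.22 (edgeR adjusted p = 0.0337). Chchd10 ranged from 1.54 to 6.49 CPM and Gm5134 from 1.27 to 4.47 CPM. Over all tested genes, 22.5% had an edgeR adjusted p under 0.05 in this comparison. Among neighbours of the other tested members, Nxt1 beside Cd93 rose by 0.80 (edgeR adjusted p = 0.0114). Hbs1l beside Myb rose by 0.32 (edgeR adjusted p = 0.0422). The other neighbours of Cd93 and Myb, and those of Rag1, Dntt and Sox4, did not pass.

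Cd93 (ENSMUSG00000027435, chr2:148436640-148443563, minus strand) was higher at 6 months than at 3 months in each genotype. Its level was 32.5 and 38.0 CPM in Eµ-TCL1 at 3 months and 48.8 and 55.7 CPM in Eµ-TCL1 at 6 months. It was 26.4, 28.2 and 27.8 CPM in the younger Eµ-PRMT5/TCL1 mice, and 69.8 and 59.4 CPM in Eµ-PRMT5/TCL1 at 6 months. The 4 groups did not overlap, with both 3-month groups (Eµ-PRMT5/TCL1 lower) below both 6-month groups (Eµ-TCL1 lower), though no step between neighbours in this order passed the test. Over all tested genes, 53.3% had no overlap between the ages in Eµ-PRMT5/TCL1. The share with all 4 groups apart was not counted.

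Myb (ENSMUSG00000019982, chr10:21124935-21160984, minus strand), which codes for a factor of proliferating progenitors, had 74.9 and 57.7 CPM in Eµ-TCL1 at 3 months and 53.0 and 38.7 CPM in Eµ-TCL1 at 6 months. It had 45.6, 46.6 and 48.1 CPM in the younger Eµ-PRMT5/TCL1 mice, and 83.0 and 107 CPM in Eµ-PRMT5/TCL1 at 6 months. Both 6-month Eµ-PRMT5/TCL1 libraries were above the other 7, and Eµ-PRMT5/TCL1 at 3 months overlapped Eµ-TCL1 at 6 months. Of the exonic bases of Myb, 6.26% are shared with Gm26577 on the opposite strand, itself at 0.577 to 5.09 CPM with its highest value in Eµ-PRMT5/TCL1 replicate 2 at 6 months.

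Sox4 (ENSMUSG00000076431, chr13:28948919-28953713, minus strand), a single-exon gene, had 1 library far above the rest. Its level was 4.66 and 5.05 CPM in Eµ-TCL1 at 3 months, 3.24 and 38.1 CPM in Eµ-TCL1 at 6 months, 4.06, 3.62 and 3.61 CPM in the younger Eµ-PRMT5/TCL1 mice, and 1.404 and 0.749 CPM in Eµ-PRMT5/TCL1 at 6 months. Eµ-TCL1 replicate 2 at 6 months, with 595 counts, was 7.55-fold above the next library, whereas the other 8 libraries had 10 to 70 counts. The 6-month Eµ-PRMT5/TCL1 libraries were the lowest of the 9. The high value was not shared by the neighbouring gene Cdkal1, which had 45.7 CPM in that library within a range of 39.6 to 60.6 CPM. Gm26735 on the other strand was listed at 0 throughout, but fragments in the bases it shares with Sox4 are left uncounted. The 0 of Gm26735 therefore does not show whether that strand was transcribed. In the same library, Rag1 was at 1.67 CPM, Dntt at 2.56 CPM, Cd93 at 55.7 CPM and Myb, with 38.7 CPM, at its lowest of all libraries, while Vpreb3, with 6.28 CPM, was at its highest.

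**Figure D2:**
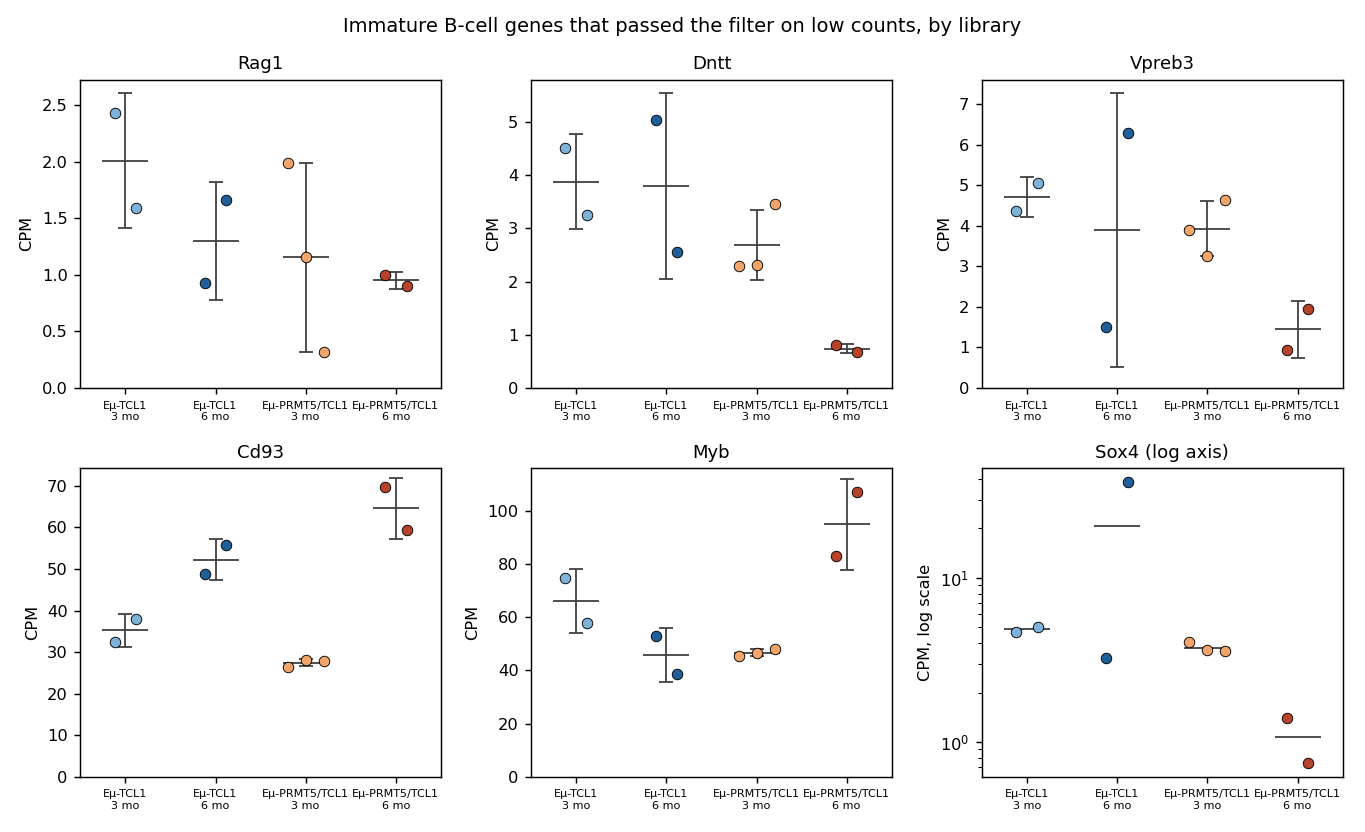
CPM of the 6 members that passed the filter, 1 point per library and 1 column per group (mean and, on linear axes, SD as bars; Sox4 on a log axis). Dntt is lowest and Myb highest in the 2 libraries of Eµ-PRMT5/TCL1 at 6 months, Cd93 is higher at 6 than at 3 months in both genotypes, and Sox4 reaches 38.1 CPM in 1 library of Eµ-TCL1 at 6 months.

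The first comparison asked how the genes changed between 3 and 6 months in Eµ-PRMT5/TCL1, before lethal disease. Cd93 and Myb rose and Dntt fell. Cd93 averaged 27.5 ± 0.940 CPM at 3 months (SD, n = 3) and 64.6 ± 7.32 CPM at 6 months (SD, n = 2), a 2.35-fold rise (log2 1.23, SE 0.121, edgeR adjusted p = 0.000818). Myb averaged 46.8 ± 1.22 CPM at 3 months (SD, n = 3) and 95.2 ± 17.2 CPM at 6 months (SD, n = 2), a 2.03-fold rise (log2 1.02, SE 0.169, edgeR adjusted p = 0.00455). Dntt averaged 2.69 ± 0.659 CPM at 3 months (SD, n = 3) and 0.738 ± 0.0908 CPM at 6 months (SD, n = 2), a 3.60-fold fall (log2 -1.85, SE 0.420, edgeR adjusted p = 0.0158).

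The other tested members did not pass in Eµ-PRMT5/TCL1. Vpreb3 had a log2 change of -1.45 (SE 0.593, edgeR adjusted p = 0.114) and Rag1 of -0.28 (SE 0.630, edgeR adjusted p = 0.779, 95% interval -1.70 to 1.15). Of the 5 members tested, Sox4 aside, 3 were thus called at an adjusted p under 0.05, where 22.5% of all 18795 tested genes were. The libraries of the 2 ages did not overlap for 4 of the 5, Vpreb3 included, where 53.3% of all genes did not. The call of Dntt was lost without Eµ-PRMT5/TCL1 replicate 3 at 3 months (edgeR adjusted p = 0.0537) or replicate 2 at 6 months (edgeR adjusted p = 0.0564). Vpreb3 passed when the spread was taken without Eµ-TCL1 replicate 1 or 2 at 6 months (edgeR adjusted p = 0.0238 and 0.0246). Without Eµ-PRMT5/TCL1 replicate 1 at 3 months, the library with Y-linked counts, the log2 changes were 1.20 for Cd93, 1.01 for Myb and -1.95 for Dntt, all called (edgeR adjusted p = 0.00754, 0.0245 and 0.0378).

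In Eµ-TCL1, the same step in age gave no call. Cd93 averaged 35.2 ± 3.94 CPM at 3 months (SD, n = 2) and 52.3 ± 4.90 CPM at 6 months (SD, n = 2), a log2 change of 0.57 (SE 0.135, edgeR adjusted p = 0.434), whereas Myb averaged 66.3 ± 12.1 CPM at 3 months (SD, n = 2) and 45.8 ± 10.1 CPM at 6 months (SD, n = 2), a log2 change of -0.53 (SE 0.188, edgeR adjusted p = 0.452). Dntt had a log2 change of -0.03 (95% interval -0.87 to 0.82), Vpreb3 of -0.28 (-1.60 to 1.03) and Rag1 of -0.64 (-2.05 to 0.78). None of the 5 was called by edgeR or DESeq2, as were 0% of all genes by edgeR. At an unadjusted p under 0.05, edgeR counted 2 of the 5 members (Cd93 and Myb) and 1898 of all genes. For Sox4, the log2 difference of 2.09 came from the high library, and without it the value was -0.58.

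The difference between these changes was tested as the interaction of genotype and age. In the Eµ-TCL1 part of this contrast, sex cannot be told apart from age. Myb differed, with a change 1.56 higher on the log2 scale in Eµ-PRMT5/TCL1 (SE 0.254, edgeR adjusted p = 0.0197). Cd93 differed by 0.67 (SE 0.182, edgeR adjusted p = 0.0838), Dntt by -1.82 (SE 0.561, edgeR adjusted p = 0.116), Vpreb3 by -1.17 (SE 0.821, edgeR adjusted p = 0.476) and Rag1 by 0.36 (SE 0.890, edgeR adjusted p = 0.864), and none of these 4 passed. Thus 1 of 5 members was called, where 3.96% of all genes were. The call of Myb was lost without Eµ-TCL1 replicate 1 at 3 months (edgeR adjusted p = 0.0829) and without Eµ-PRMT5/TCL1 replicate 1 or 3 at 3 months (edgeR adjusted p = 0.0651 and 0.0663).

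The genotypes were then compared at each age. At 3 months no member was called and neither was any other gene (0% of those tested by edgeR, with 242 genes and 2 members, Cd93 and Myb, at an unadjusted p under 0.05; DESeq2 called no member). The log2 differences, Eµ-PRMT5/TCL1 against Eµ-TCL1, were -0.36 for Cd93, -0.50 for Myb, -0.53 for Dntt, -0.26 for Vpreb3 and -0.79 for Rag1. At 6 months, Myb was 2.07-fold higher in Eµ-PRMT5/TCL1 (log2 1.05, SE 0.189, edgeR adjusted p = 0.00968) and Dntt 5.10-fold lower (log2 -2.35, SE 0.435, edgeR adjusted p = 0.0106). Cd93 differed by 0.31 (95% interval 0.00394 to 0.61, edgeR adjusted p = 0.175), Vpreb3 by -1.43 (edgeR adjusted p = 0.183) and Rag1 by -0.43 (edgeR adjusted p = 0.719). The 2 calls among 5 members compare with 11.8% of all genes. The call of Myb was lost without Eµ-TCL1 replicate 2 at 6 months (edgeR adjusted p = 0.0508) and that of Dntt without replicate 1 (edgeR adjusted p = 0.0504), while Vpreb3 was called without replicate 1 (edgeR adjusted p = 0.0306). With only the 4 libraries of this comparison in the fit, neither Myb (edgeR adjusted p = 0.112) nor Dntt (edgeR adjusted p = 0.102) passed. The Sox4 difference of -4.24 on the log2 scale became -1.57 without the high library.

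Against the mean of the 3 other groups, Eµ-PRMT5/TCL1 at 6 months had 1.75-fold more Cd93 (log2 0.80, SE 0.103, edgeR adjusted p = 0.00120), 1.82-fold more Myb (log2 0.87, SE 0.144, edgeR adjusted p = 0.00353) and 4.57-fold less Dntt (log2 -2.19, SE 0.387, edgeR adjusted p = 0.00476). Vpreb3 had a log2 difference of -1.53 (edgeR adjusted p = 0.0758), which passed with DESeq2 (adjusted p = 0.0204) and without Eµ-TCL1 replicate 1 at 6 months (edgeR adjusted p = 0.00932). Here 3 of 5 members were called against 23.7% of all genes, and for 3 of 5 (Cd93, Myb and Dntt) the libraries did not overlap against 33.1% of all genes. This comparison shares its libraries with those before it and is not a separate line of evidence.

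**Figure D3:**
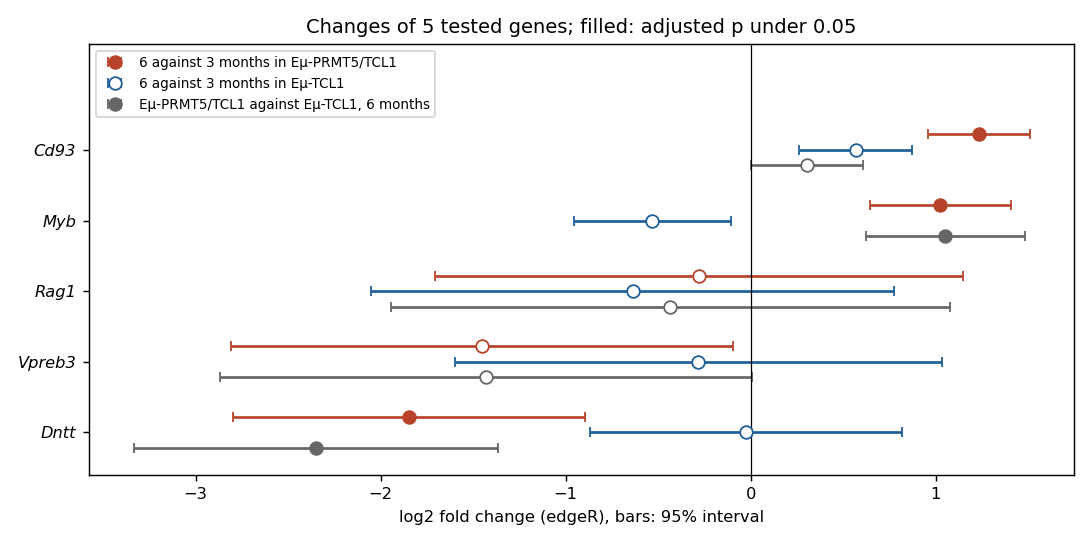
Log2 fold changes of the 5 tested members with 95% intervals from edgeR (x axis), for 6 against 3 months in each genotype and for the genotypes at 6 months, filled where the adjusted p was under 0.05. Cd93, Myb and Dntt are filled for age in Eµ-PRMT5/TCL1, none is filled for age in Eµ-TCL1, and Myb and Dntt are filled between genotypes.

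Other genes of B-cell development were taken from lists, and those of early stages changed in both directions in 6 against 3 months of Eµ-PRMT5/TCL1. Of 20 further genes of early B development, 19 were tested, 3 rose and 4 fell, with a median log2 change of 0.04 against -0.02 over all tested genes; the share called was 36.8%, against 22.5% of all tested genes. Cd24a, a surface protein that is high on immature B cells, rose from 289 ± 37.7 to 706 ± 119 CPM (SD, n = 3 and 2; log2 1.29, edgeR adjusted p = 0.00106). Cnn3, a calponin, rose from 59.0 to 112 CPM (log2 0.92, edgeR adjusted p = 0.00175) and Cplx2, a complexin, from 2.51 to 9.40 CPM (log2 1.90, edgeR adjusted p = 0.0221). The transcription factor genes Bach2, Lef1 and Bcl11a fell. Bach2, a repressor of plasma cell differentiation, went from 133 to 32.1 CPM (log2 -2.05, edgeR adjusted p = 0.000717), Lef1, also a T-cell gene, from 127 to 35.5 CPM (log2 -1.84, edgeR adjusted p = 0.00175) and Bcl11a from 263 to 103 CPM (log2 -1.35, edgeR adjusted p = 0.003998). Of 14 genes of the end joining that seals RAG cuts, 1 rose (Xrcc5, which codes for the KU80 subunit, from 37.3 to 48.4 CPM, log2 0.38, edgeR adjusted p = 0.0374) and none fell, a share of 7.14%; the median was 0.23. The Xrcc5 call was lost in 10 of the alternative fits, and that of Cplx2 in 4.

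Genes of later B-cell stages changed as well. Of 14 genes of mature follicular and marginal zone B cells, 2 rose and 7 fell, or 64.3% against 22.5% of all tested genes, with a median log2 change of -0.66. Cr2, the complement receptor CD21, fell from 855 ± 16.8 to 74.0 ± 26.6 CPM (SD, n = 3 and 2; log2 -3.53, edgeR adjusted p = 0.000374). Fcer2a, which codes for CD23, fell from 158 to 16.1 CPM (log2 -3.30, edgeR adjusted p = 0.00221) and Ighd, the IgD constant region, from 364 to 82.7 CPM (log2 -2.14, edgeR adjusted p = 0.00143). The chemokine receptor gene Cxcr5 rose from 195 to 353 CPM (log2 0.86, edgeR adjusted p = 0.00597), as did Cd38 from 181 to 283 CPM (log2 0.64, edgeR adjusted p = 0.0476), a call that was lost in 10 of the alternative fits. Of 12 genes of B-1 and fetal-type B cells, 10 were tested, 6 rose and 1 fell, or 70.0%, and the median was 1.09; with the replicate block the list had 4 calls in place of 7. Zbtb32, a transcriptional repressor, rose from 12.1 to 147 CPM (log2 3.61, edgeR adjusted p = 0.00106), Plscr1 from 15.5 to 92.6 CPM (log2 2.58, edgeR adjusted p = 0.000548) and Arid3a, an activator of immunoglobulin transcription, from 57.0 to 226 CPM (log2 1.99, edgeR adjusted p = 0.00117). Tcf7, also a T-cell gene, fell from 102 to 37.5 CPM (log2 -1.45, edgeR adjusted p = 0.00334). In Eµ-TCL1 no gene of these 4 lists was called between the ages by edgeR.

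**Figure D4:**
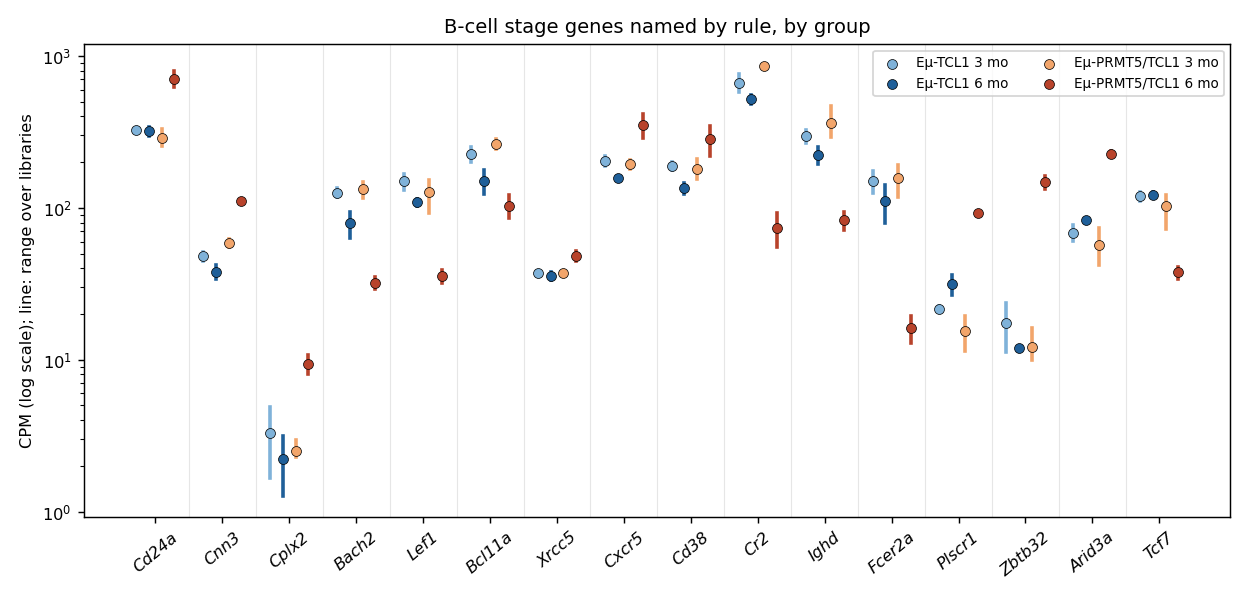
CPM (log scale) of 16 genes of B-cell stages, with the group mean as a point and the range over libraries as a line. Cd24a, Zbtb32, Plscr1 and Arid3a are highest, and Cr2, Fcer2a, Ighd and Bach2 lowest, in Eµ-PRMT5/TCL1 at 6 months.

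Markers of other cells moved with the same group. In 6 against 3 months of Eµ-PRMT5/TCL1, where 22.5% of all tested genes were called, 14 of 16 T-cell markers fell (87.5%) and none rose, and their summed level was 644 to 816 CPM in Eµ-PRMT5/TCL1 at 6 months against 1397 to 2184 CPM in the other 7 libraries. Of 10 natural killer markers, 9 fell (90%), with sums of 155 to 157 against 279 to 574 CPM. That count was 4 without Eµ-PRMT5/TCL1 replicate 2 at 6 months, 5 without replicate 1 at 6 months and 5 without replicate 1 at 3 months. Of 10 plasma cell markers, 6 rose (60.0%), with sums of 2118 to 2269 against 947 to 1708 CPM.

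The summed levels of general B-cell markers and of proliferation genes were also highest in this group, but their counts of calls were near those of all genes. Of 10 general B-cell markers 3 rose (30%), or 5 without Eµ-PRMT5/TCL1 replicate 1 at 6 months, with sums of 5440 to 7727 against 2886 to 4545 CPM. Of 15 proliferation genes 3 rose (20.0%), with sums of 1721 to 2157 against 583 to 1559 CPM. That count was 0 with the replicate block, without Eµ-PRMT5/TCL1 replicate 1 or 3 at 3 months or without its replicate 1 at 6 months, 1 without its replicate 2 at 6 months or without TMM scaling, and 5 without its replicate 2 at 3 months. It was 7 with only the groups compared, 8 without either Eµ-TCL1 library of 6 months and 9 with DESeq2. No defining marker of these 5 lists was at 0 in all libraries. The part of these shifts in the lower Dntt, Lef1 and Tcf7 and in the higher Cd93 and Myb was not tested.

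The summed endothelial and stromal markers were lower in Eµ-PRMT5/TCL1 at 6 months, at 135 to 204 CPM against 224 to 321 CPM in the other libraries. Nearly all of this sum was Pecam1, at 128 to 318 CPM, and the next highest marker, Cdh5, reached 3.74 CPM. The sum thus describes 1 gene rather than the list. In 6 against 3 months of Eµ-PRMT5/TCL1, 1 marker was higher and 1 lower of 4 tested, and 0 were called with the replicate block. Of the 10 markers, 1 was at 0 throughout. The sums of the other lists overlapped. Of 12 myeloid markers none was called, and their sum was 1197.1 and 9597 CPM in the 2 libraries of Eµ-PRMT5/TCL1 at 6 months, 8840 and 14707 CPM in Eµ-TCL1 at 6 months and 2047 to 6300 CPM in the 5 libraries of 3 months. Myeloid and endothelial cells can also express Cd93. Of the 4 libraries of 6 months, all with higher Cd93 than those of 3 months, 3 had the highest myeloid sums of the series and 1, with 59.4 CPM of Cd93, the lowest; the part of these cells in the level of Cd93 was not tested. Stem and progenitor markers summed to 5.02 to 28.1 against 12.9 to 33.1 CPM. Erythroid and megakaryocyte markers summed to 24.7 to 28.9 against 17.04 to 39.04 CPM, with 1 of 10 at 0 throughout. In 6 against 3 months of Eµ-PRMT5/TCL1, edgeR called no marker of either list and DESeq2 called 1 erythroid and megakaryocyte marker. Against the mean of the other groups, edgeR called 1 erythroid and megakaryocyte marker higher. Between genotypes at 6 months it called 1 stem and progenitor marker lower.

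**Figure D5:**
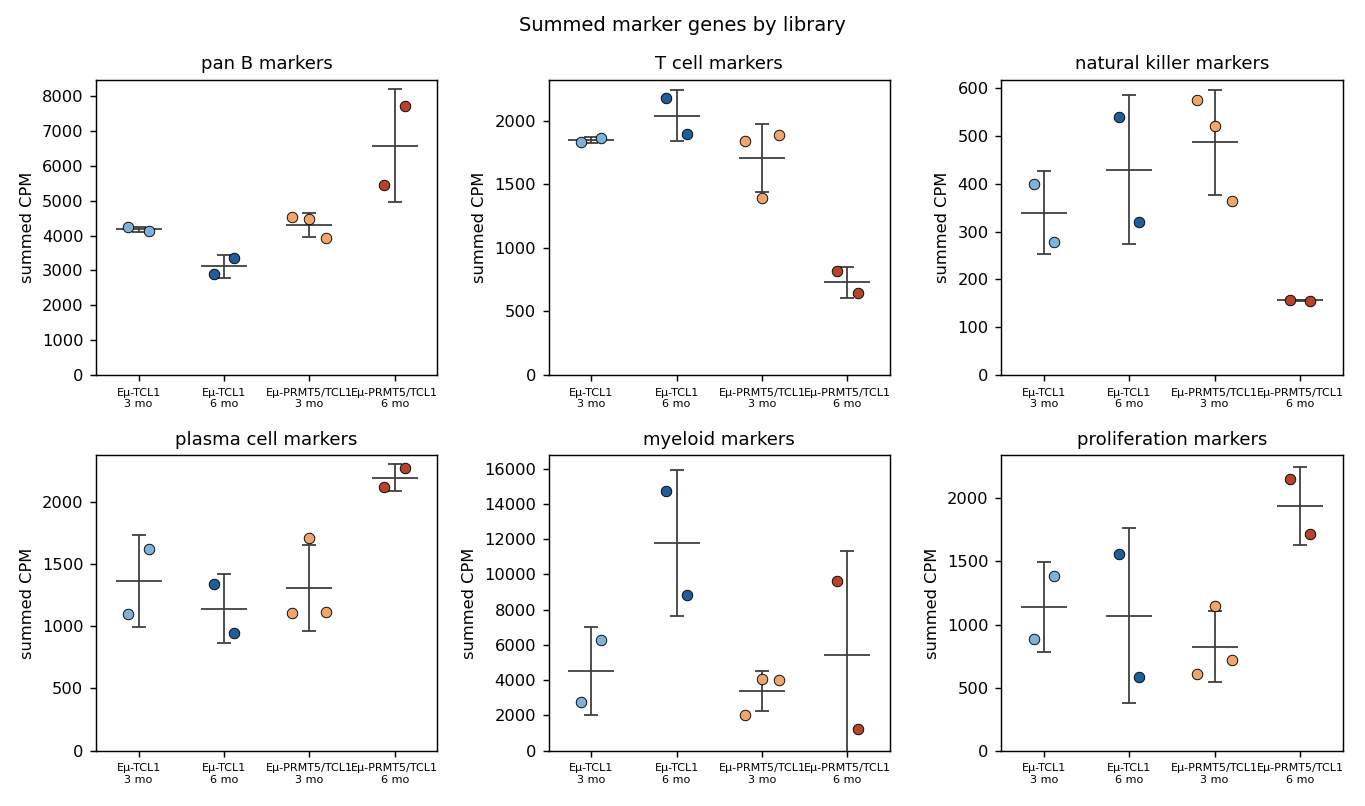
Summed CPM of 6 marker lists, 1 point per library with the group mean and SD. T-cell and natural killer sums are lowest, and plasma cell, proliferation and general B-cell sums highest, in both libraries of Eµ-PRMT5/TCL1 at 6 months, whereas the myeloid sums of that group lie far apart at 1197.1 and 9597 CPM.

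Genes with the profiles most like those of 4 members over the 9 libraries were listed among 12519 protein-coding genes, by the root mean square difference (RMS) of log2 CPM after centring each gene on its mean. For Cd93 they included Arpc3, Gpi1, Gng12 and Pim1, with an RMS of 0.133 to 0.163 against a spread of 0.500 for Cd93 itself. For Myb they were Antxr1, Rida, Ispd, Mcu and Fut8, with an RMS of 0.123 to 0.167 against 0.451. For Vpreb3 they were Tspear, Slc4a3, Nckap5l, Gipc3 and Carns1, less closely, with an RMS of 0.315 to 0.374 against 0.814. Some of these profiles rest on few counts. Antxr1 ranged from 0.448 to 1.80 CPM, Tspear from 0.201 to 1.22 CPM and Slc4a3 from 0.0669 to 1.99 CPM, near or under the floor at their lowest. For Sox4 the nearest were Myo18b, Ninl, Zfp184 (0.150 to 3.65 CPM), Mmp11 and Afap1, with an RMS of 0.589 to 0.647 against 1.39. This RMS was the largest of the 4 members, but so was the spread of Sox4 itself. That spread includes the high library on which Sox4 was selected.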

How the data were processed

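RNA of splenic B cells was sequenced from 9 mice as stranded read pairs. Per the methods and file headers, the authors trimmed reads, aligned them with STAR (2.6.0c) to GRCm38 and counted fragments per gene with featureCounts 1.4.6-p5 on Ensembl release 95 without strand; the deposited counts were not normalized. Fragments in exons shared by overlapping genes were therefore not counted, which bears on Sox4. Groups came from the sample description, which names genotype, age and replicate. Here, edgeR 4.0.16 (R 4.3.3) fitted all 9 libraries together (filterByExpr, which kept 18795 of 54838 genes, TMM scaling, robust quasi-likelihood test), with Benjamini-Hochberg adjustment over all tested genes and a threshold of 0.05. The pipeline was tested on simulated data. The study's methods name DESeq2, run here as an alternative (1.42.0). Each SE was derived as the size of the log2 change over the root of F. CPM used TMM-scaled totals of tested genes, log2 CPM a prior count of 2, and FPKM the exon length in the files. The floor was 3 counts and covers counting error only. Symbols came from GENCODE and matched 54723 identifiers.

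The members and lists were chosen with earlier results of these data known, so their counts are no independent evidence. Named list genes were the called genes, at most 3 higher and 3 lower per list by adjusted p in 6 against 3 months of Eµ-PRMT5/TCL1. Labels do not say that samples come from separate litters or experiments, so p-values measure the spread between these mice. Replicate libraries differed by 8.02 to 62.9 chi-square units per gene, more than sampling noise, so none was counted as a duplicate. Alternatives were other scalings, no filter, a replicate block, only the groups compared, and leaving out each library. The block is a term for each replicate number. Only Eµ-PRMT5/TCL1 at 3 months has a replicate 3, so the block fits that library by a term of its own and in effect drops it. Of the genes with profiles most like a member, 5 per member by rule, 1 is not reported here.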

Additional observations from a re-analysis of the deposited data

Results flagged for a closer look

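The change between 3 and 6 months differed between the genotypes for 1 of 5 tested members, Sox4 aside, and 11 of 16 named B-cell stage genes. This was by the edgeR interaction test on all 9 libraries, which 3.96% of all tested genes passed. Sex and age cannot be told apart in the Eµ-TCL1 part of this test. The 16 genes had been picked as called for age in Eµ-PRMT5/TCL1, which is part of this contrast, so a high share is built in. The values are the change in Eµ-PRMT5/TCL1 minus that in Eµ-TCL1, on the log2 scale. The member was Myb, at 1.56 (edgeR adjusted p = 0.0197). The differences were positive for Zbtb32 (4.17), Plscr1 (2.05), Arid3a (1.72), Cd24a (1.31), Cnn3 (1.26) and Cxcr5 (1.22). They were negative for Cr2 (-3.17), Fcer2a (-2.85), Ighd (-1.73), Tcf7 (-1.48) and Bach2 (-1.38). For these 11 genes the edgeR adjusted p ranged from 0.00710 to 0.0374. All 12 calls depended on the libraries used: with the replicate block, or without Eµ-TCL1 replicate 1 at 3 months, 0 of 12 were called. Without Eµ-PRMT5/TCL1 replicate 3 at 3 months 1 was (Cr2). Leaving out another Eµ-TCL1 library gave 4 (replicate 2 at 3 months), 7 (replicate 1 at 6 months) and 5 (replicate 2 at 6 months). Leaving out Eµ-PRMT5/TCL1 replicate 1 at 3 months gave 5, replicate 2 at 6 months 10, and each of the other libraries 12. The direction of all 12 was kept in each of these fits. Cd38 moved in opposite directions in the genotypes, with all libraries of each age apart, but its difference of 1.14 did not pass (edgeR adjusted p = 0.0734).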

How the results depend on the processing

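Of 685 recomputed changes of members (Sox4 aside) and named genes, 634 kept their direction and their side of the threshold. Of the rest, 35 lost a call, 6 gained one and 10 changed sign. The cause was not tested. Leaving out each library in turn gave 2 to 4 members called of 5 for age in Eµ-PRMT5/TCL1, 0 for age in Eµ-TCL1 and for genotype at 3 months, 1 to 2 for genotype at 6 months, 3 to 4 for Eµ-PRMT5/TCL1 at 6 months against the others and 0 to 1 for the interaction. With only the compared groups in the fit, which leaves 4 libraries, 0 members were called for genotype at 6 months.

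Sign changes, Sox4 aside, were limited to uncalled log2 values. Leaving out each library, Rag1 ranged from -0.71 (without Eµ-PRMT5/TCL1 replicate 3 at 3 months) to 0.35 (without replicate 1) for age in Eµ-PRMT5/TCL1, from -0.81 to 0.0388 (without Eµ-TCL1 replicate 1 and replicate 2 at 6 months) for genotype at 6 months, and from -0.0874 to 0.99 (without Eµ-PRMT5/TCL1 replicate 3 and replicate 1 at 3 months) for the interaction, which was also negative without Eµ-TCL1 replicate 1 at 6 months (-0.0187) and with the replicate block (-0.10). For age in Eµ-TCL1, Dntt ranged from -0.58 to 0.38 (without replicate 1 and replicate 2 at 6 months), with 0.23 without replicate 1 at 3 months and 0.0139 with no filter, and Vpreb3 from -1.63 to 0.43 (without replicate 2 and replicate 1 at 6 months). The Vpreb3 interaction ranged from -1.87 to 0.19 (without Eµ-TCL1 replicate 1 and replicate 2 at 6 months).

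Same-numbered samples had a mean r of -0.103 over 12 pairs, which was not positive. The mean for other numbers, 0.0689, follows from that value, because deviations were taken from the group mean. The pairs are also not independent, so these values do not decide whether the numbers pair mice. The main fit did not take the numbers to pair mice. With the replicate block, 33 of 36 member changes kept their direction and side, Dntt was not called for age in Eµ-PRMT5/TCL1 (edgeR adjusted p = 0.0569) and 0 members were called for the interaction (Myb, edgeR adjusted p = 0.111). The block called 1123 of all genes for age in Eµ-PRMT5/TCL1 against 4227 without it, 980 against 2216 for genotype at 6 months, 2373 against 4448 for the contrast with the other groups and 2 against 745 for the interaction. It in effect drops Eµ-PRMT5/TCL1 replicate 3 at 3 months, and leaving out that library alone gave 1956 for age in Eµ-PRMT5/TCL1. With crossed numbers in Eµ-TCL1, an alternative added after seeing the data, 0 genes were called for age. DESeq2 called 55 genes for age in Eµ-TCL1, 3 for genotype at 3 months and 1260 for the interaction, and fits on only the groups compared called 53 for age in Eµ-TCL1 and 25 for genotype at 6 months. Leaving out each library gave 1956 to 4361 genes for age in Eµ-PRMT5/TCL1, 0 to 114 for age in Eµ-TCL1, 1138 to 3727 for genotype at 6 months and 2 to 2359 for the interaction. The filter on low counts (filterByExpr), which is separate from the floor of 3 counts, left Rag2, Vpreb1 and Igll1 untested.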

Other observations

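Sox4 was among the few genes with a value in 1 library as far above all others (log2 difference of at least 2.88). Eµ-TCL1 replicate 2 at 6 months held 2 such genes, Sox4 and Kctd15, a gene on chromosome 7 for a BTB domain protein, which had 6.60 CPM there against 0.766 CPM in the next library. The 2 libraries of Eµ-PRMT5/TCL1 at 6 months held 11 and 12 such genes, and each of the other 6 held 0 to 2. Kctd15 was named after its value was seen.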
